A study of Mus musculus with 10 samples.

Results

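The genes described here are Hras, Nras, Rras, Rras2, Rheb and Rhebl1, 6 small GTPases of the RAS and RHEB branches. Their levels were compared between regulatory T (Treg) cells labelled Fntb KO and WT. Fntb encodes the beta subunit of protein farnesyltransferase. The 6 genes were chosen by symbol: a probe set had to be annotated with 1 gene and that gene had to be a member. The probe set with the highest mean stood for the gene. Of the 6 genes, 5 were found in this way, each with 1 probe set, among 22180 genes with a usable probe set. No probe set was listed for Hras in the platform annotation used here, so Hras was not analysed here. There were 5 Fntb KO arrays, from CD4+ YFP+ cells of Foxp3CreFntbfl/fl chimeras, in which Cre under Foxp3 control removes the floxed Fntb alleles, and 5 WT arrays, from CD4+ YFP+ cells of WT chimeras. In both groups the cells were sorted from spleen and pLN and no treatment is labelled. The sources used here do not give the hosts and donors of the chimeras, the age of the mice, or whether the arrays of a group came from separate animals. The p-values therefore reflect the spread among these samples alone, part of which may be technical. Values are in log2 units after RMA, so that 1 unit is a 2-fold change.

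RAS proteins are switches that are on when bound to GTP and off when bound to GDP. Exchange factors such as SOS and RASGRP turn them on downstream of the T cell receptor, GTPase-activating proteins turn them off, and active RAS engages the RAF, MEK and ERK kinases and PI3K. RHEB is the GTPase that activates mTORC1 at the lysosome and is switched off by the TSC complex. These proteins work at membranes, and farnesyltransferase attaches a farnesyl lipid to a cysteine near the C terminus of H-RAS, N-RAS and RHEB. R-RAS is known instead as a substrate of the related geranylgeranyl transferase, and N-RAS can be modified by that enzyme when farnesylation is blocked, so the members are not all bound to Fntb in the same way. An array reads the transcript and not the lipid, the membrane location or the GTP state of the protein.

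The targeted transcript was lower in Fntb KO. Fntb read 5.49, 5.31, 5.41, 5.55 and 5.62 on the Fntb KO arrays, against 6.35, 5.99, 5.98, 6.09 and 6.20 on the WT arrays. The groups did not overlap, and the difference was -0.65 (SE 0.0963, n = 5 each, adjusted p = 0.00442 in limma over all genes), and -0.63 without the 3 arrays with the lowest medians. The position of this probe set relative to the deleted exons was not examined. Foxp3, the lineage factor of Treg cells, was 10.53 ± 0.05 in Fntb KO against 10.67 ± 0.03 in WT (mean ± SD, n = 5 each). The Foxp3 groups did not overlap, and its difference of -0.14 did not pass (adjusted p = 0.601 in limma). The other T cell and Treg markers were also well above the 95th percentile of olfactory receptor genes (4.19). That percentile is used here as a rough guide to the level of a gene that is silent in T cells. Of all 7 such markers 6 had a negative difference and 1 a positive one, and none passed. Ctla4 differed by -0.39 (adjusted p = 0.0778 in limma), without overlap of the groups, and Ikzf2 by -0.41 (adjusted p = 0.236 in limma). Both were named after their values were seen. Array medians ran from 4.09 to 4.25. Fntb KO 1, Fntb KO 2 and WT 2 had the lowest ones and stood apart from the other 7 arrays, and the members' differences are given with and without them. In the sample titles these 3 arrays carry consecutive numbers. The titles do not say what the numbers stand for, and their part in the split was not tested.

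None of the measured RAS and RHEB transcripts passed the test for a difference between Fntb KO and WT Treg cells. In limma 0 of 5 members had an adjusted p under 0.05, where 1.11% of all genes did (0.302% raised and 0.807% lowered), and 0 of 5 had an unadjusted p under 0.05, where 9.26% of all genes did. The Fntb KO and WT values overlapped for all 5, and the groups did not overlap for 2.67% of all genes. The median of the 5 differences was 0.01 and the median of their sizes 0.07, against 0.01 and 0.09 over all genes tested. The largest change that any of the 95% intervals allowed was 1.40-fold, for a lower Rhebl1, and for Nras, Rras, Rras2 and Rheb the bound was between 1.17-fold and 1.27-fold. In RNA of a whole sorted sample, fewer cells of a kind and less RNA per cell cannot be told apart.

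Nras encodes N-RAS, which when loaded with GTP recruits RAF kinases to the membrane. It read 8.52, 8.64, 8.50, 8.47 and 8.40 on the Fntb KO arrays, against 8.46, 8.52, 8.44, 8.39 and 8.38 on the WT arrays. In Fntb KO, 2 arrays lay above every WT array and 4 of 5 lay above the WT median, but the groups overlapped. The means were 8.50 ± 0.09 in Fntb KO against 8.43 ± 0.06 in WT (mean ± SD, n = 5 each). The difference was 0.07 (95% interval -0.10 to 0.23, adjusted p = 0.872 in limma), so a rise beyond 1.18-fold lay outside the interval. The Nras difference was 0.04 without the 3 low-median arrays (95% interval -0.15 to 0.24, adjusted p = 0.915), also 0.04 without Fntb KO 2 alone, and 0.12 after a second quantile normalization (adjusted p = 0.624). Nras was the steadiest member: the SD of its arrays around their group means, 0.07, lay at percentile 2.27 of all genes.

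Rras encodes R-RAS, a RAS relative known for its part in integrin-dependent adhesion. Its values were 5.23, 5.29, 5.71, 5.40 and 5.49 on the Fntb KO arrays, against 5.34, 5.59, 5.38, 5.45 and 5.33 on the WT arrays. The Fntb KO arrays held both the highest and the lowest values, and the WT arrays lay between them. The means, 5.43 ± 0.19 in Fntb KO against 5.42 ± 0.11 in WT (mean ± SD, n = 5 each), gave the smallest difference of the 5 members, 0.01 (95% interval -0.21 to 0.22, adjusted p = 0.995 in limma). That value rests on arrays that went opposite ways. Fntb KO 1 and 2 averaged 0.27 below the other Fntb KO arrays, while WT 2 was 0.21 above the other WT arrays. Without those 3 arrays the Rras difference was 0.16 (95% interval -0.07 to 0.39, adjusted p = 0.649 in limma).

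Rras2 encodes R-RAS2, also called TC21, which is known to support T cell receptor signalling through PI3K. It read 7.95, 8.13, 7.73, 7.81 and 7.85 on the Fntb KO arrays, against 7.72, 7.96, 7.55, 7.74 and 7.86 on the WT arrays. Of the Fntb KO arrays 4 lay above the WT median and 1 above every WT array, while 2 WT arrays lay below every Fntb KO array. The means were 7.89 ± 0.16 in Fntb KO against 7.77 ± 0.15 in WT (mean ± SD, n = 5 each), a difference of 0.13 (95% interval -0.09 to 0.35, adjusted p = 0.790 in limma). Rras2 had the largest positive difference of the members, and it was 0.08 (95% interval -0.15 to 0.30) without the 3 low-median arrays, and 0.07 without Fntb KO 2 or WT 3 alone.

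Rheb, the activator of mTORC1, read 7.85, 7.83, 7.30, 7.51 and 7.46 on the Fntb KO arrays, against 7.41, 7.86, 7.65, 7.52 and 7.68 on the WT arrays. Within Fntb KO the first 2 arrays stood about as high as the highest WT array, and the other 3 lay below the WT median. The means were 7.59 ± 0.24 in Fntb KO against 7.62 ± 0.17 in WT (mean ± SD, n = 5 each), a difference of -0.03 (95% interval -0.30 to 0.23, adjusted p = 0.974 in limma). Without the 3 low-median arrays it was -0.14 (95% interval -0.37 to 0.09, adjusted p = 0.690), again not past the threshold.

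Rhebl1, a close relative of Rheb that in human cells can also activate mTORC1, read 4.46, 4.92, 4.23, 4.71 and 4.99 on the Fntb KO arrays, against 4.86, 5.04, 4.58, 4.69 and 5.02 on the WT arrays. In Fntb KO 2 arrays lay below every WT array, and in WT 2 arrays lay above every Fntb KO array. The means were 4.66 ± 0.32 in Fntb KO against 4.84 ± 0.20 in WT (mean ± SD, n = 5 each), a difference of -0.18 (95% interval -0.49 to 0.14, adjusted p = 0.809 in limma). This was the largest difference in size among the members and the widest interval. It was -0.14 (95% interval -0.52 to 0.24) without the 3 low-median arrays and -0.07 without Fntb KO 3 alone. The mean over all arrays, 4.75, was only 0.56 above the olfactory receptor guide, and folds so close to it can understate a change.

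**Figure D1:**
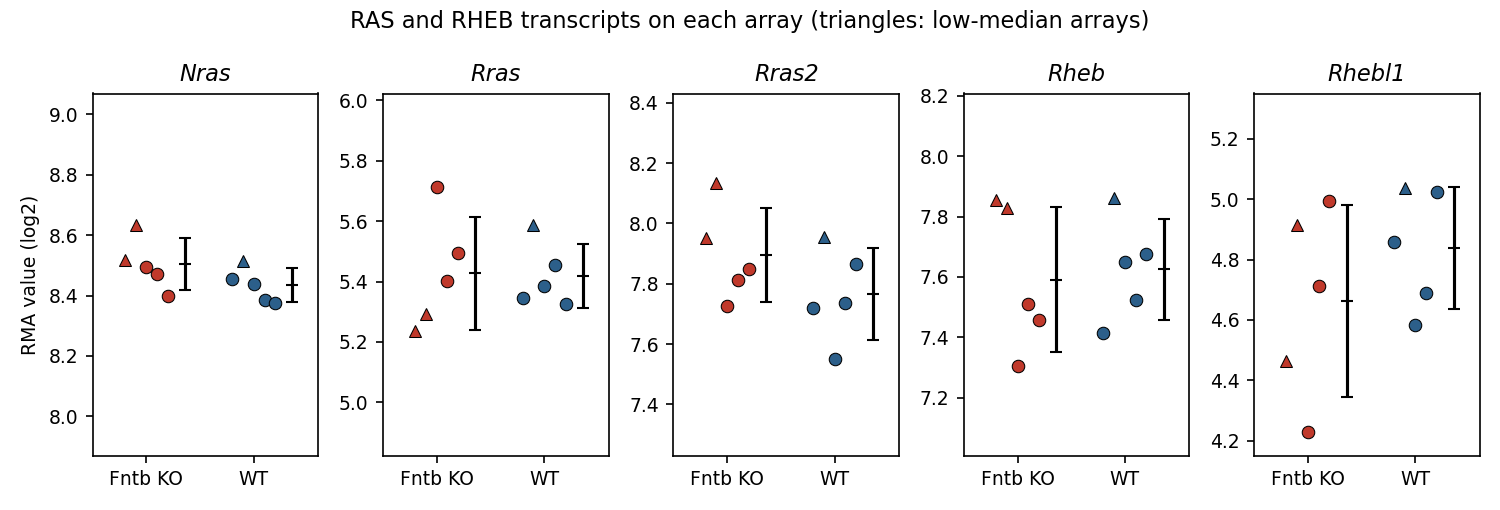
RMA values (log2) of the 5 measured RAS and RHEB transcripts on each array, Fntb KO in red and WT in blue. Triangles are the 3 arrays with the lowest medians, black marks are the mean with its SD (n = 5), and each panel spans the same log2 range. In every panel the Fntb KO and WT points overlap, most tightly for Nras and most widely for Rhebl1.

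**Figure D2:**
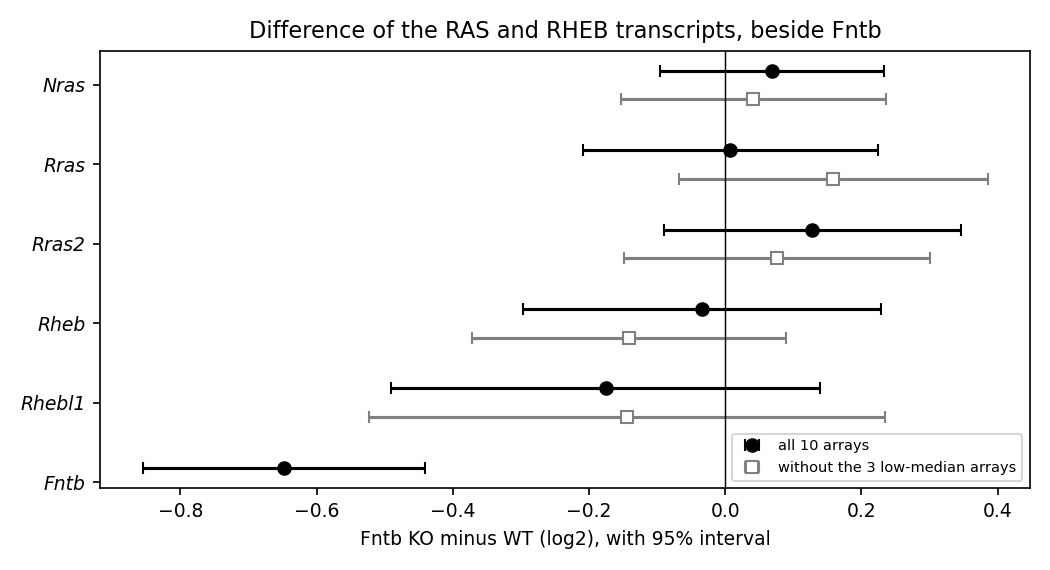
Difference Fntb KO minus WT (log2) with its 95% interval from limma, for the 5 members and for Fntb. Black circles use all 10 arrays, and open squares leave out the 3 low-median arrays for the members. All 10 member intervals include 0, and that of Fntb, -0.86 to -0.44, does not.

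For Nras, Rheb and Rras2 the larger differences ran between arrays and not between genotypes. Nras, Rheb and Rras2 were each higher on all 3 low-median arrays than on any of the other 7: 8.52 to 8.64 against 8.38 to 8.50 for Nras, 7.83 to 7.86 against 7.30 to 7.68 for Rheb, and 7.95 to 8.13 against 7.55 to 7.86 for Rras2. The same held for 6.36% of all genes and for 12.1% of the genes above the olfactory receptor guide. The split between the 3 and the 7 arrays held 59.4% of the variance of Nras, 70.6% of that of Rheb and 62.0% of that of Rras2, and genotype held 22.2%, 0.832% and 17.6% of the same genes' variance. For Rhebl1 and Rras the split held 1.98% and 6.08%, and genotype 12.0% and 0.0732%. For Nras, Rheb and Rras2 the gap had the same direction in each genotype. Among Fntb KO and WT arrays it was 0.12 and 0.10 for Nras, 0.42 and 0.29 for Rheb, and 0.25 and 0.24 for Rras2. For Rhebl1 it was 0.04 and 0.25, and for Rras it ran opposite ways, at -0.27 and 0.21. The WT gap rests on 1 low-median array, WT 2, so its spread is not known. Within the 3 low-median arrays (2 Fntb KO, 1 WT, so without a test) Fntb KO minus WT was 0.06 for Nras, -0.02 for Rheb, 0.09 for Rras2, -0.35 for Rhebl1 and -0.33 for Rras. The 3 arrays also had the highest medians of the 71 mitochondrial ribosomal protein genes, reaching 7.11, where the other 7 arrays ran from 6.35 to 6.69, and their part in the result was not tested.

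**Figure D3:**
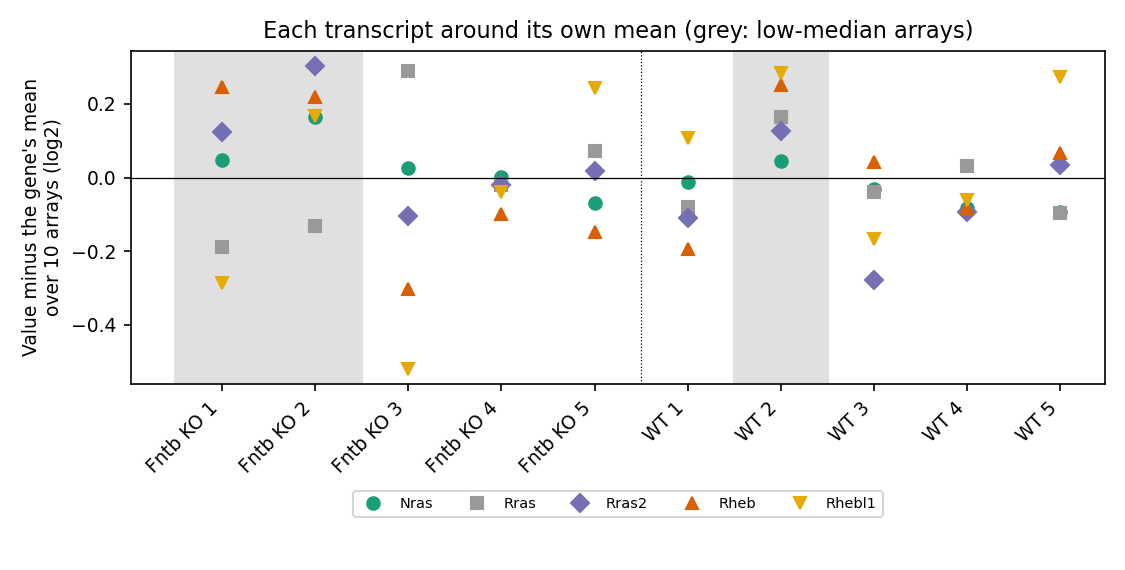
Value of each transcript minus its own mean over the 10 arrays (log2), with Fntb KO arrays left of the dotted line and WT arrays right of it. On the 3 arrays shaded grey Nras, Rheb and Rras2 all lie above their means, while Rras and Rhebl1 lie on both sides.

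Across the 10 arrays Rheb and Rras2 had a Pearson r of 0.63, Nras and Rras2 one of 0.64, and Nras and Rheb one of 0.47. With each group centred on its own mean these were 0.74, 0.55 and 0.58. Rras went the other way from Rheb, at -0.49. The points are the same 10 arrays throughout and share their normalization and the 3 arrays that stand apart, so these values are descriptions. Over the 10 arrays the named genes most like Nras were Zfp512b (r = 0.96) and Nim1k (0.95), those most like Rheb were Spag7 (0.95) and Snap29 (0.95), and those most like Rras2 were Rpap1 (0.93) and AI597479 (0.93). Rhebl1 was most like Rnf227 (0.90) and Terc (0.90), and Rras most like Plpbp (0.87) and Pold1 (0.86). The search ran over 10179 candidate genes, and none of these 10 genes passed the test between genotypes. They were picked for their likeness to members that did not pass, so this is no separate result.

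Because Nras, Rheb and Rras2 were high on the same arrays, the promoter windows of these 3 genes are shown, from 250 bases before to 50 bases after the gene's start. The sequences are those of RefSeq on GRCm38.p6, found by gene symbol, and capitals mark the GC box GGGCGG and the E-box CACGTG on either strand. Nras lies at chr3:103058035-103058334 on the plus strand, Rheb at chr5:24842312-24842611 on the minus strand and Rras2 at chr7:114117732-114118031 on the minus strand, each window 5′ to 3′ along the gene.
Nras: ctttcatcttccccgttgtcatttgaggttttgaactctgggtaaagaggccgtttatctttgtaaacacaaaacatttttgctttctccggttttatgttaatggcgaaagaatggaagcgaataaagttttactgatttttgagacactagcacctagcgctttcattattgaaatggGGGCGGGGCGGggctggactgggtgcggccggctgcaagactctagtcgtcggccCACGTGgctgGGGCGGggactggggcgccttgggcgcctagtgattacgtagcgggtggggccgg
Rheb: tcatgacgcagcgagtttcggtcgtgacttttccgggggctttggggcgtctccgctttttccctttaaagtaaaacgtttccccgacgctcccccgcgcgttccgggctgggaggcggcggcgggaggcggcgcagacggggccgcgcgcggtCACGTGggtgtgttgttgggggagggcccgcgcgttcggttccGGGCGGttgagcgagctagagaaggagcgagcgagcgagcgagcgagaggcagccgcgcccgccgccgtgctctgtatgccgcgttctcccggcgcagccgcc
Rras2: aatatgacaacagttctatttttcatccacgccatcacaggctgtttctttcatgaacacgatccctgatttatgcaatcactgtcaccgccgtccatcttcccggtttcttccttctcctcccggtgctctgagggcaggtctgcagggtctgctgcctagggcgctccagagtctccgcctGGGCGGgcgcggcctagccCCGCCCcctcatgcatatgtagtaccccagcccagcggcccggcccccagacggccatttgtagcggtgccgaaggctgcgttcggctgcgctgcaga

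The GC box was found 3 times in the Nras window, where 2 of the matches share a base, 1 time in that of Rheb and 2 times in that of Rras2, and 35.7% of 32851 promoter windows in the table hold it at least once. The E-box was found 1 time each in the Nras and Rheb windows and not in that of Rras2, and 7.15% of windows hold it. A CCAAT box, searched as CCAAT on both strands and held by 37.4% of windows, was in none of the 3. The windows of Rras, which was not high on all of those arrays, held neither the GC box nor the E-box, and some held a CCAAT box. Rhebl1 had no window. A match describes these letters and shows neither a bound site nor a cause of the levels.

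Around the GTPases, lists of genes that switch RAS and RHEB, carry their signal or handle their lipid were examined in the same fit. Of 79 listed genes 72 were measured, and 4 of them passed (5.56%, against 1.11% of all genes). Of these 2 were raised in Fntb KO and 2 were lowered, 1 of the lowered being Fntb itself. The shares cannot test for an excess in the lists. They count the targeted gene, and the lists were chosen with earlier results of these data known. The share of all genes also takes in 11101 of 22180 with a mean below the olfactory receptor guide. Without the low-median arrays 2 listed genes passed, Fntb and Ksr2, and with a block for those arrays the same 4 passed.

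The exchange factors, which load RAS with GTP, had 1 raised and 0 lowered members of 8, with a median difference of 0.04. Rasgrf2, a calcium-responsive exchange factor, read 4.47, 4.64, 4.91, 4.65 and 4.43 on the Fntb KO arrays, against 3.96, 4.05, 4.11, 4.21 and 4.16 on the WT arrays. Its groups did not overlap and it rose by 0.53 (SE 0.0993, adjusted p = 0.0215 in limma), from a WT level below the guide of 4.19. Leaving out the 3 low-median arrays ended the call (0.56, adjusted p = 0.0852), and so did leaving out Fntb KO 4, WT 2 or WT 3 alone. With all arrays kept and a block for the low-median ones, Rasgrf2 passed (0.54, adjusted p = 0.0149 in limma). Rasgrp2 and Rasgrp1, chosen after their values were seen, differed by 0.38 (adjusted p = 0.0893) and -0.02 (adjusted p = 0.975). Rasgrp1 is the main exchange factor of T cell receptor signalling, and Rasgrp2 is known as an activator of RAP1. The Rasgrp2 groups did not overlap, at 8.50 to 8.64 in Fntb KO against 7.97 to 8.44 in WT, and its difference did not pass.

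The RAS GTPase-activating proteins had 0 raised and 0 lowered members of 8 measured, with a median of 0.02. The largest differences were Rasa4 at 0.19 (adjusted p = 0.704) and Rasa1 at -0.18 (adjusted p = 0.581). Rasa4 lay below the guide of 4.19 in both groups, and its difference was 0.10 without Fntb KO 2 and 0.06 without the 3 low-median arrays. Rasa1 encodes p120 RASGAP and was 9.34 ± 0.15 in Fntb KO against 9.52 ± 0.08 in WT (mean ± SD, n = 5 each).

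Among RAF, MEK and ERK kinases and their scaffolds 7 of 10 were measured, 1 was raised and 0 lowered, with a median of 0.03. The raised gene was Ksr2, a scaffold of the RAF and MEK kinases. It read 6.10, 6.13, 5.88, 5.94 and 5.89 on the Fntb KO arrays, against 5.15, 4.69, 5.09, 5.27 and 5.52 on the WT arrays. Every Fntb KO array lay above every WT array, and the difference was 0.84 (SE 0.131, adjusted p = 0.00599 in limma), or 1.79-fold. Without the 3 low-median arrays it was 0.64 (adjusted p = 0.0366). The kinases Araf and Braf differed by 0.10 and 0.13 and Map2k1 by -0.03, and Ksr1, a scaffold related to Ksr2, by -0.30 (adjusted p = 0.502), and none of these passed. These 4 genes were named after their values were seen.

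The effectors on the PI3K and RAL side of RAS had 0 raised and 1 lowered members of 12, with a median of -0.12. Tiam1, an exchange factor that links RAS to RAC, read 5.31, 5.50, 5.33, 5.57 and 5.50 on the Fntb KO arrays, against 5.66, 6.08, 6.03, 5.99 and 6.08 on the WT arrays. It fell by 0.52 on the log2 scale (SE 0.0996, adjusted p = 0.0221 in limma), and the groups did not overlap. Leaving out the 3 low-median arrays ended the call (-0.47, adjusted p = 0.145). Leaving out Fntb KO 1, Fntb KO 3, WT 2, WT 3, WT 4 or WT 5 alone did so too. With all arrays kept and a block for the low-median ones, Tiam1 passed (-0.53, adjusted p = 0.0196 in limma).

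Of the RHEB regulators and mTORC1 core subunits 0 of 8 passed, with a median of 0.04. Tbc1d7, the third subunit of the TSC complex that switches RHEB off, was 4.04 ± 0.41 in Fntb KO against 3.52 ± 0.37 in WT (mean ± SD, n = 5 each), a difference of 0.52 with an adjusted p of 0.408 at levels below the guide of 4.19. Akt1s1, which encodes the mTORC1 inhibitor PRAS40, differed by 0.21 (adjusted p = 0.671). The kinase gene Mtor, named after its value was seen, was 7.21 ± 0.07 in Fntb KO against 7.22 ± 0.12 in WT (mean ± SD, n = 5 each).

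Of 14 measured RAS family relatives 0 passed, with a median of -0.05 and with Rit1 at -0.25 (adjusted p = 0.766) and Rap2a at 0.23 (adjusted p = 0.551) as the largest differences. Rit1 was at -0.09 without Fntb KO 4 and at -0.40 without the 3 low-median arrays. Of 15 genes for RAS lipid modification and trafficking only Fntb passed, and the list's median was 0.00 to 2 decimals. Its partner Fnta, the alpha subunit that farnesyltransferase shares with geranylgeranyl transferase I, differed by -0.27 (adjusted p = 0.676), and Pggt1b, the beta subunit of geranylgeranyl transferase I, by -0.24 (adjusted p = 0.468). Both were named after their values were seen.

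**Figure D4:**
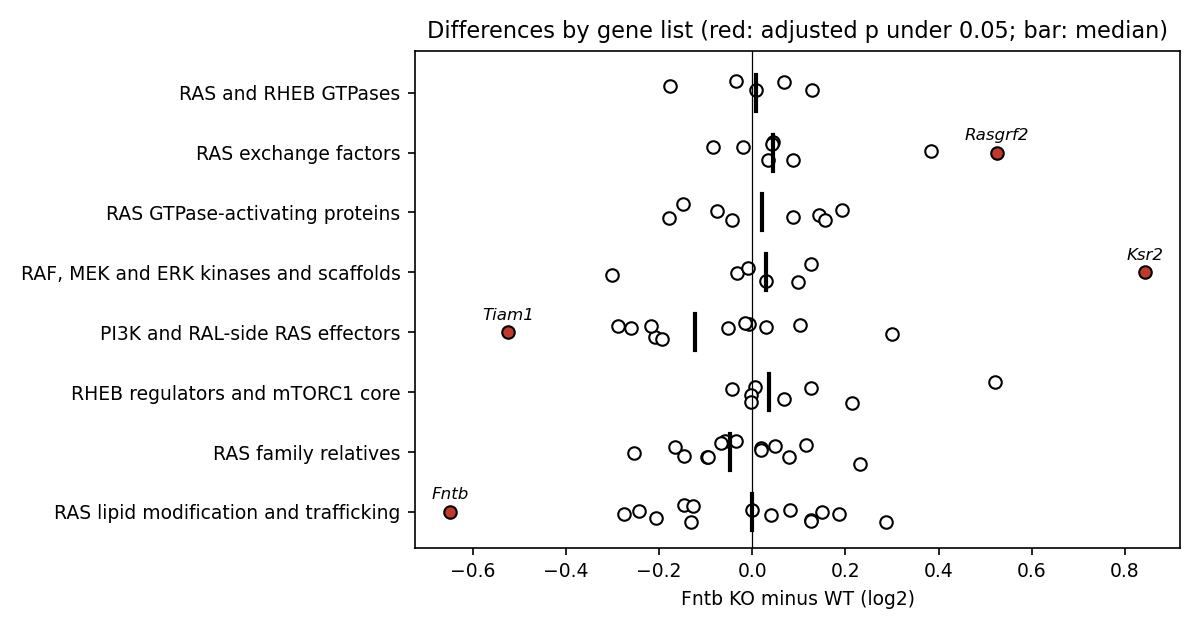
Difference Fntb KO minus WT (log2) of each measured gene, by list, with the list's median as a bar. Red points have an adjusted p under 0.05 in limma over all genes: Ksr2 and Rasgrf2 lie to the right, Tiam1 and Fntb to the left, and all 5 RAS and RHEB GTPases lie between -0.18 and 0.13.

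Markers of other cells that the sort could hold were followed next. Of 27 measured ones 16 had a mean below the guide of 4.19. Pecam1 (mean 9.23), Lyz2 (6.50) and Cd79b (5.26) were among those above it and did not pass. In all 1 of 27 passed, where 1.11% of all genes did, and that was Nkg7, a cytotoxic granule gene. Nkg7 was at 6.79 ± 0.26 in Fntb KO against 7.58 ± 0.22 in WT (mean ± SD, n = 5 each). Its difference was -0.79 (adjusted p = 0.0126 in limma). The other 4 markers of CD8 T or NK cells, Cd8a, Cd8b1, Klrb1c and Ncr1, had positive differences of 0.07 to 0.27, and none of them passed. The marker genes given here were named after their values were seen. The neutrophil gene S100a8 was uneven, at 5.27, 3.59, 6.25, 4.74 and 4.15 on the Fntb KO arrays against 3.34, 3.98, 3.79, 3.93 and 3.73 on the WT arrays. Its difference of 1.05 did not pass (adjusted p = 0.321). S100a9 did not pass either (0.66, adjusted p = 0.546 in limma), and its highest value, 6.35, was also on Fntb KO 3. The summed linear level of the 4 neutrophil markers ran from 54.4 to 182 on the Fntb KO arrays and from 52.9 to 72.9 on the WT arrays, with Ly6g and Elane below the guide in both groups. Fntb KO 3, the array with the highest S100a8, was also the highest of all arrays for Rras and the lowest for Rheb and Rhebl1. Without that array Rheb differed by 0.04, Rhebl1 by -0.07 and Rras by -0.06, and none of them passed. The part of other cells in these values was not tested.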

How the data were processed

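RNA of sorted Treg cells was measured on 10 one-colour Affymetrix arrays, 5 Fntb KO and 5 WT. Per the labels' protocols, NuGEN kits were used to amplify and biotinylate the total RNA. Per the submitters' processing notes, the values deposited by the authors are log2 values from RMA in Affymetrix Expression Console 1.1, with further settings not given in the sources used here. Values in the series matrix and in the authors' table were identical.

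Of 41345 probe sets, 23521 named 1 gene, 1820 several and 16004 were unnamed here. Symbols were checked through Entrez identifiers against RefSeq genes of GRCm38.p6 (23328 matched). The probe set with the highest mean stood for each gene, leaving 22180 genes, with no filter on dim genes. The Fntb KO arrays were set against the WT arrays with limma 3.58.1 (R 4.3.3 with version 1.17.8 of data.table, lmFit and eBayes, no covariate), two-sided, with Benjamini-Hochberg adjustment over all genes and a threshold of 0.05. The fit was tested on simulated data. The number of arrays limits the precision.

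The members, lists and naming rule were chosen with earlier results of these data known. The naming rule took Fntb, Foxp3, from each pathway list up to 4 genes past the threshold or else the 2 largest differences, and for each member the 2 genes with the highest r; exceptions are marked. A gene was counted above background over the 95th percentile of 1105 olfactory receptor genes. Alternatives were a repeated quantile normalization, dropping genes under the median level, array weights, eBayes with trend and robust, averaging a gene's probe sets, testing every probe set, using the table of the authors, requiring a log2 change of 0.5 and leaving out each array. A block for the 3 low-median arrays, and leaving them out, were chosen after seeing the data.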

Additional observations from a re-analysis of the deposited data

Results flagged for a closer look

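Tiam1 on WT 1 read 5.656, apart from the other WT arrays at 5.99 to 6.08, and was the WT value nearest to Fntb KO. Rasa1 on WT 1 read 9.384, apart from the other WT arrays at 9.53 to 9.57. Both values lie far from the rest of their group by Dixon's test, in 30 groups of 5 arrays looked at for 15 genes, and chance marks about 1 in 20 groups. None of the 5 measured RAS and RHEB transcripts had such an array. Without WT 1 the Tiam1 difference was -0.60 and that of Rasa1 -0.22.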

How the results depend on the processing

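The 5 members did not pass under any of the 19 alternatives each, and 0 were called in all of them. Some of these could not move a member's difference. Each member has 1 probe set, and the authors' table holds the same values as the series matrix. The fits that averaged probe sets, tested every probe set or used the authors' table kept the main differences. So did dropping genes under the median level and eBayes with trend and robust, which change only the test. Nras and Rras2 kept a positive difference throughout (0.04 to 0.12 and 0.07 to 0.18) and Rhebl1 a negative one (-0.26 to -0.07). Leaving out single arrays gave -0.0997 to 0.0376 for Rheb, which turned positive without Fntb KO 3 or WT 2, and -0.0639 to 0.0554 for Rras, which turned negative without Fntb KO 3, Fntb KO 5, WT 1, WT 3 or WT 5; both differences are small against their SE, and the cause was not tested. Over all genes, 67 were raised and 179 lowered. Lowered genes numbered 117 with every probe set tested, 275 with a block for the 3 low-median arrays and 109 without them, where 41 were raised. Leaving out single arrays gave 32 to 61 raised and 95 to 192 lowered genes, and the counts moved by over 1.5 times without WT 3 (32 and 95), WT 4 (33 and 102) and WT 5 (35 and 118), and for lowered genes without WT 2 (116). The fits without arrays have fewer samples and that of every probe set tests more features; the cause of the higher count with the block was not tested. Ksr2 passed under all alternatives run, and Tiam1 and Rasgrf2 also lost their calls with every probe set tested (adjusted p = 0.0645 and 0.0630). No fit gives Hras a value. No paired analysis was possible because the labels give no replicate numbers. Rhebl1 lies closest to the level of genes not expressed, which limits what its fold can show.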
